A study of Mus musculus with 6 samples.

Results

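The fertilin and ADAM3 family is a group of 10 mouse genes, Adam1a, Adam1b, Adam2, Adam3, Adam4, Adam5, Adam6a, Adam6b, Adam18 and Adam32. Their probes on an Agilent expression array were matched by RefSeq accession, and that of Adam3 by gene symbol. The array carried 14 probes for these 10 genes among 41174 probes, and all 10 were among the 18975 genes tested. Whole testes of 3 Prss37 knockout mice (Prss37KO in the sample titles, Prss37-/- in the design text) were compared with testes of 3 wild-type mice. Both genotypes were males on a C57BL/6 background, aged 6 to 8 weeks, with no other allele or treatment named in the labels, with 3 per genotype by the design text. One label field of the knockout samples gives Prss55 where title and source give Prss37, so grouping followed the title. What was removed from the Prss37 gene is not stated.

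ADAM proteins are membrane proteins with a disintegrin and a metalloprotease domain. Male germ cells make many of them as precursors that mature in the testis and epididymis. Fertilin is the pair of an alpha subunit (ADAM1a or ADAM1b) with the beta subunit ADAM2, and it was the founding member of the family on sperm. In mouse work, sperm lacking ADAM3, also called cyritestin, fail to pass the uterotubal junction and bind poorly to the zona pellucida. ADAM3 is lost from sperm when any of several partner or chaperone genes is deleted, and Prss37, a testis gene of the trypsin family, is known from mouse knockouts as another gene needed for mature ADAM3. The arrays measured the transcripts of these genes, not the proteins.

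The probes of Adam6a, Adam6b and Adam1a are shown because these genes had the largest differences of the family, and those of Adam2 and Adam3 because fertilin beta and ADAM3 name the group. Each is 60 bases, given 5′ to 3′ as the scanner files print it, with the strand those files list, in lower case with no part marked.
Adam6a, chr12:114783663-114783722 (mm9, + strand): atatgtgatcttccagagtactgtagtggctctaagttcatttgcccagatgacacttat
Adam6b, chr12:114729640-114729699 (mm9, + strand): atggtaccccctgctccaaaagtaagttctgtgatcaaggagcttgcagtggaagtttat
Adam1a, brighter probe, chr5:121969000-121969059 (mm9, - strand): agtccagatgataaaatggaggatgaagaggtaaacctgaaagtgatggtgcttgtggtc
Adam1a, dimmer probe, chr5:121970411-121970470 (mm9, - strand): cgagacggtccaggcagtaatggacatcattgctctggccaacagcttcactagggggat
Adam2, chr14:66648532-66648591 (mm9, - strand): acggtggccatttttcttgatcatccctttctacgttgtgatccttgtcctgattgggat
Adam3, chr8:25787727-25787786 (mm9, - strand): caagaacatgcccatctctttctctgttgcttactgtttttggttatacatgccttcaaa
The longest run of bases that any of the 14 probes shared with another probe of the array, on either strand, was 12 to 15 bases. Transcript sequences were not used here, so matches of a probe to other transcripts were not examined. The Adam6a and Adam6b probes lie at different places in their transcripts, starting at bases 1544 and 1864.

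Between 69.2% and 71.4% of spots were well above background on the 6 arrays, and no spot was saturated. All 14 member probes were well above background on 6 of 6 arrays. Levels are given here as relative signal, the processed spot signal divided by the 75th percentile of the array, and they are compared between mice but not between probes. Replicates 1 and 2 of each genotype shared a slide and a scan, and replicate 3 of each lay on another. The targeted gene Prss37 had a relative signal of 41.8, 45.6 and 44.2 in knockout testes, against 71.8, 66.7 and 76.9 in wild-type testes. Its log2 difference, knockout minus wild type, was -0.71 (SE 0.07, limma adjusted p = 0.024). The call was lost under 7 of 20 alternatives, namely without knockout replicate 1, 2 or 3 or wild-type replicate 1 (adjusted p of 0.071, 0.12, 0.13 and 0.097), with no filter (0.093), with the replicate block (0.13) and on slide 1 alone (0.12). The probe starts at base 959 of the transcript, and whether it lies in the deleted part is unknown.

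None of the 10 family members passed the test at an adjusted p under 0.05, a threshold that 2.46% of all tested genes passed. At an unadjusted p under 0.05 there were 2 members, Adam6a and Adam6b, both lower in knockout testes, where 23.9% of all tested genes had such a p. These 2 members were also the ones whose knockout and wild-type arrays did not overlap, against 31.6% of all genes. Over single probes the groups did not overlap at 3 of 14 member probes, against 30.4% of all tested probes. The log2 difference was above 0 in 5 members and below 0 in 5, with a median of -0.0024, and the median over all tested genes was also -0.0024. A difference smaller than 0.1 on the log2 scale was seen in 7 of 10 members and in 53.5% of all genes. The counts of 2 members were not above the shares over all genes. In bulk testis, fewer cells of a type and less RNA per cell cannot be told apart.

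**Figure D1:**
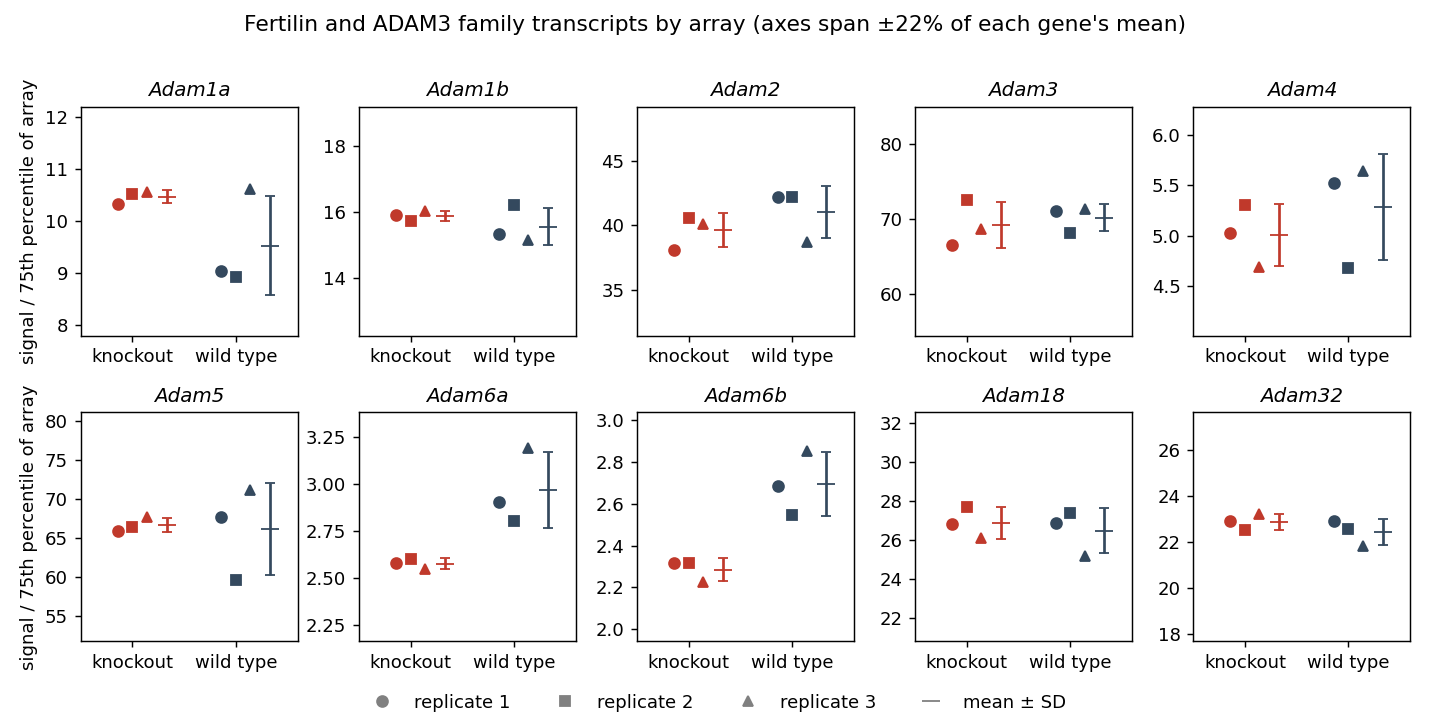
Relative signal (processed signal divided by the array's 75th percentile) of the brighter probe of each of the 10 members, with knockout arrays in red on the left and wild-type arrays in dark blue on the right of each panel. Symbols mark replicates, bars give the mean and SD of 3 arrays, and only in Adam6a and Adam6b do all knockout arrays lie below all wild-type arrays.

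Among the fertilin subunits, Adam1a, the alpha subunit that pairs with ADAM2 inside testicular germ cells, had relative signals of 10.3, 10.5 and 10.6 in knockout testes, against 9.03, 8.93 and 10.6 in wild-type testes. Wild-type replicate 3 lay just above the knockout arrays, and the other wild-type arrays lay below all of them. The log2 difference was 0.14 (SE 0.07, adjusted p = 0.32), with a 95% interval from -0.04 to 0.32. Without wild-type replicate 3 it was 0.22, over 1.5 times as large, with an adjusted p of 0.060. On slide 1 it was 0.22 and on slide 2 it was -0.01.

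The dimmer Adam1a probe, which lies nearer the 5′ end of the transcript, read 0.991, 1.01 and 1.002 in knockout testes, against 0.823, 0.927 and 0.983 in wild-type testes. Here the knockout arrays lay above all wild-type arrays, by little over wild-type replicate 3. The difference of this probe was 0.14 (SE 0.07, adjusted p = 0.31 with each probe tested on its own). The difference was of the same size at both probes, and at both the wild-type array on slide 2 was the highest of its group.

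Adam1b, the alpha subunit of the fertilin found on the sperm surface, had relative signals of 15.9, 15.7 and 16.02 in knockout testes, against 15.3, 16.2 and 15.1 in wild-type testes. The groups overlapped and the log2 difference was 0.03 (SE 0.04, adjusted p = 0.71). Its other probe gave 0.04 (SE 0.06, adjusted p = 0.72). Adam2, the beta subunit that both alpha subunits pair with, read 38.1, 40.6 and 40.1 in knockout testes, against 42.2, 42.2 and 38.7 in wild-type testes. Wild-type replicate 3 lay among the knockout arrays. The difference was -0.05 (SE 0.05, adjusted p = 0.61), and it was -0.10 on slide 1 and 0.05 on slide 2.

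Adam3 and the neighbouring genes Adam18, Adam5 and Adam32 lie in a row on chromosome 8, with probes spread over 268.4 kb. Adam3 had relative signals of 66.5, 72.6 and 68.7 in knockout testes, against 71.0, 68.1 and 71.4 in wild-type testes, with the lowest and the highest value both in knockout testes. It averaged 69.3 ± 3.07 in knockout testes and 70.2 ± 1.82 in wild-type testes (SD, n = 3 each). The log2 difference was -0.02 (SE 0.05, adjusted p = 0.85). In percent this was a level 1.33% lower, with a 95% interval from -9.19% to 7.21%. The interval is for Adam3 alone and is not adjusted for the number of genes. With 3 arrays per group, a change of the Adam3 transcript within those bounds is not excluded. The bounds are not a limit of detection, since Adam6b, with a difference of -15.1%, was not called.

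Adam5, an ADAM that in mouse testis is found together with ADAM2 and ADAM3, read 66.0, 66.4 and 67.7 in knockout testes, against 67.7, 59.7 and 71.1 in wild-type testes. The wild-type arrays spread widely around the knockout ones, and the difference was 0.01 (SE 0.07, adjusted p = 0.93). A second Adam5 probe gave -0.04 (SE 0.04, adjusted p = 0.67). Its ends lie 34057 bases apart in the genome (chr8:25857993-25892049, mm9), as those of a probe across a splice junction would, though junctions were not examined. Adam18, another ADAM of male germ cells, read 26.8, 27.7 and 26.1 in knockout testes, against 26.9, 27.4 and 25.2 in wild-type testes. Its difference was 0.02 (SE 0.05, adjusted p = 0.83) at the brighter probe and -0.01 (SE 0.05, adjusted p = 0.88) at the dimmer one. Adam32, a testis ADAM at the end of the row, read 22.9, 22.5 and 23.2 in knockout testes, against 22.9, 22.6 and 21.8 in wild-type testes. Its difference was 0.03 (SE 0.04, adjusted p = 0.71). For all 4 genes of the row the groups overlapped, and the 95% intervals of the brighter probes lay between -10.4% and 13.9%.

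Adam4, whose protein is known in mouse sperm in a complex with ADAM2 and ADAM3, read 5.03, 5.30 and 4.69 in knockout testes, against 5.52, 4.68 and 5.64 in wild-type testes. Wild-type replicate 2 was level with the lowest knockout array, and the other wild-type arrays lay above all knockout ones. The log2 difference was -0.07 (SE 0.09, adjusted p = 0.66), the largest SE of the 10 members. It was 0.02 on slide 1 and -0.27 on slide 2, and -0.16 without wild-type replicate 2.

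**Figure D2:**
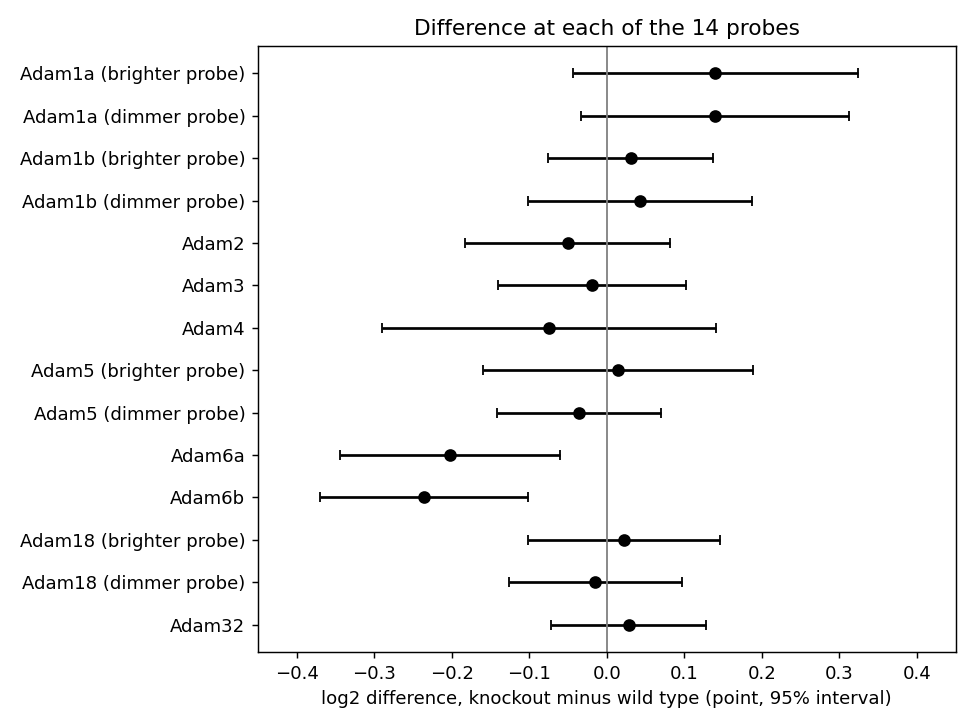
Log2 difference, knockout minus wild type, at each of the 14 member probes (points) with the 95% interval from the limma fit of each probe on its own (bars). The intervals of Adam6a and Adam6b lie below 0 and the other 12 include 0.

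Adam6a and Adam6b are paralogous genes on chromosome 12, with probes 54.0 kb apart, inside the immunoglobulin heavy chain locus. Their product ADAM6 is known in mouse sperm in a complex with ADAM2 and ADAM3, and mice without both genes are subfertile with sperm that poorly enter the oviduct. Adam6b had relative signals of 2.31, 2.32 and 2.22 in knockout testes, against 2.68, 2.55 and 2.85 in wild-type testes. All knockout arrays lay below all wild-type arrays, and wild-type replicate 3 was the highest. Adam6b averaged 2.29 ± 0.0536 in knockout testes and 2.69 ± 0.154 in wild-type testes (SD, n = 3 each). The log2 difference was -0.24 (SE 0.05, limma adjusted p = 0.075), or 1.18-fold. In percent the difference was -15.1%, with a 95% interval from -22.6% to -6.91%. Adam6b passed with a variance trend and robust fitting (adjusted p = 0.035) and with array weights (0.0496), with differences of -0.24 and -0.23, and its adjusted p ran from 0.055 to 0.25 over the other alternatives.

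Adam6a read 2.58, 2.60 and 2.55 in knockout testes, against 2.91, 2.81 and 3.20 in wild-type testes. Again all knockout arrays lay below all wild-type arrays, with wild-type replicate 3 the highest. Adam6a averaged 2.58 ± 0.0279 in knockout testes and 2.97 ± 0.202 in wild-type testes (SD, n = 3 each). Its log2 difference was -0.20 (SE 0.06, adjusted p = 0.11), or 1.15-fold. Within slide 1 the differences of Adam6a and Adam6b were -0.14 and -0.17, and within slide 2, with 1 array per genotype, they were -0.33 and -0.36. Without wild-type replicate 3 they were -0.15 (adjusted p = 0.11) and -0.19 (0.090). With slide 1 alone the adjusted p was 0.29 and 0.25. Whether the probe of each paralogue also binds transcripts of the other was not tested, so the pair is not taken as independent observations.

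**Figure D3:**
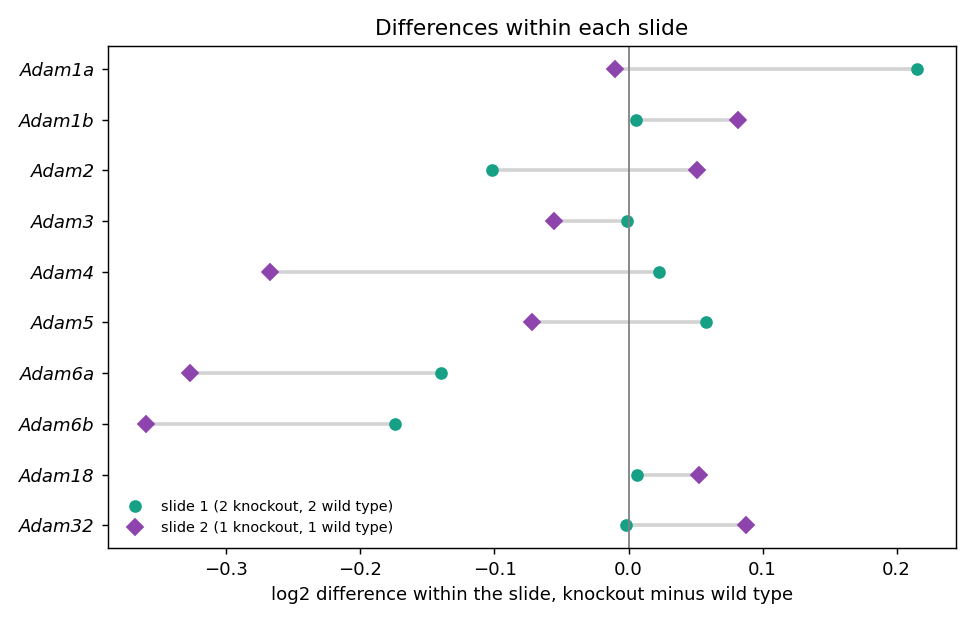
Log2 difference, knockout minus wild type, of each member within slide 1 (circles, mean of 2 arrays per genotype) and within slide 2 (diamonds, 1 array per genotype). Adam6a, Adam6b and Adam3 lie below 0 on both slides, Adam3 only just so on slide 1 (-0.0011). Adam1b and Adam18 lie above 0 on both, while Adam1a, Adam2, Adam4, Adam5 and Adam32 change side.

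The stretch of 250 bases before the annotated start of Adam6a and of Adam6b is shown because the pair had the lowest differences of the family. It comes from the RefSeq promoter table on GRCm38.p6, in which 4 of the 10 members (Adam1a, Adam1b, Adam6a and Adam6b) were matched. Capitals mark the longest run the windows share.
Adam6a, chr12:113543658-113543907 (GRCm38.p6, + strand): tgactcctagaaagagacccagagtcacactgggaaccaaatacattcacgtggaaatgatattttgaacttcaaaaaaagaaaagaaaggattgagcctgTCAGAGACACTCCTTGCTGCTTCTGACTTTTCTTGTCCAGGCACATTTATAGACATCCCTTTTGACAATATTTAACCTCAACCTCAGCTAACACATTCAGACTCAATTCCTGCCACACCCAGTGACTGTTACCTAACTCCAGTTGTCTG
Adam6b, chr12:113489315-113489564 (GRCm38.p6, + strand): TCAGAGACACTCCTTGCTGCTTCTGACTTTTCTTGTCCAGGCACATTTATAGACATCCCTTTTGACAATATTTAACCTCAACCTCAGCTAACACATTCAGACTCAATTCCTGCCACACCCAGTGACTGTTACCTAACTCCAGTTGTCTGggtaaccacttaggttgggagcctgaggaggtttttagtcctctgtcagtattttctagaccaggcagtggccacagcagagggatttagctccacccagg
The shared run was 149 bases, identical at every base, and no other of the 32851 promoters in the table held it on either strand. It ends just before the annotated start of Adam6a and begins 250 bases before that of Adam6b, so the annotated starts of the pair are set at different points of the same sequence. With the 50 bases after each start included, the shared run was 199 bases of windows of 300. The fertilin alpha-subunit genes Adam1a and Adam1b shared no run over 7 bases in windows of the same 250 bases. The letters TATAAA, on either strand, were found in both Adam6 windows and in neither Adam1 window, and in 12.4% of all windows of this length. In the Adam6 pair they lie inside the shared run, so the pair does not give separate matches. The letters TGACGTCA (the cyclic AMP response element) were in none of the 4 windows and in 1.55% of all, and TGACG, which TGACGTCA contains, was in none of the 4 and in 17.8% of all. Such matches describe the windows and are not evidence of a bound factor.

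Genes near the members were looked at after the members' values had been seen. Within 1 Mb of the Adam6 pair 36 other genes were tested and none was called, with 18 of 36 differences below 0 and a median of 0.0072. Around the row on chromosome 8 there were 18 other tested genes, also with none called and a median of 0.0049. None of 44 genes around Adam1a and Adam1b was called. Around Adam2 and Adam4 there was 1 called gene each, of 24 and 28, where 2.46% of all tested genes were called. Some of these neighbours had no gene symbol and kept a sequence identifier, among them the called one near Adam4.

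The family was set beside the genes known from mouse work to be needed for ADAM3 processing or for sperm migration. Of 15 tested genes of that list 1 was called, Prss37 itself, with 7 differences above 0 and 8 below 0 and a median of -0.0014. The list was chosen with earlier results of these data known. Calr3, a testis chaperone of the calreticulin family needed for ADAM3 folding, had relative signals of 22.3, 23.6 and 23.2 in knockout testes, against 26.8, 25.3 and 28.9 in wild-type testes. Its arrays did not overlap, and the difference was -0.23 (SE 0.06, adjusted p = 0.094). Wild-type replicate 3 was the highest of its group, as in Adam6a and Adam6b, but also in Adam1a, Adam3, Adam4, Adam5, Prss37 and Prss55. Calr3 passed under 3 of 20 alternatives (quantile normalization, the deposited table, and a variance trend with robust fitting), with adjusted p from 0.045 to 0.31 over all 20. Ros1, a receptor kinase of the epididymis, had 0.49 (SE 0.09, adjusted p = 0.057), and 0.34 with normexp background correction. Its level was low, with relative signals of 0.0750, 0.0915 and 0.0918 in knockout testes, against 0.0630, 0.0631 and 0.0572 in wild-type testes. It passed under 4 of 20 alternatives (the same 3 and array weights), with adjusted p from 0.041 to 0.21 over all 20. Clgn, the chaperone calmegin on which the fertilin pair depends, had 0.08 (SE 0.07, adjusted p = 0.55). Tex101, a partner of ADAM3 on germ cells, had 0.17 (SE 0.09, adjusted p = 0.32), and Prss55 had -0.16 (SE 0.09, adjusted p = 0.36).

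Of the other ADAMs with testis expression 7 were tested, and 1 of them passed. Adam26a, a testis ADAM of chromosome 8, had relative signals of 4.12, 4.22 and 4.02 in knockout testes, against 3.13, 3.47 and 3.37 in wild-type testes. It rose by 0.31 on the log2 scale (SE 0.05, limma adjusted p = 0.047), a call lost under 13 of 20 alternatives, among them leaving out any 1 array other than wild-type replicate 2 (adjusted p from 0.066 to 0.17). The median of these 7 differences was 0.19, with 6 above 0, beside the median of -0.0024 and the 5 of 10 above 0 in the fertilin and ADAM3 family. Whether the lists differ was not tested.

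**Figure D4:**
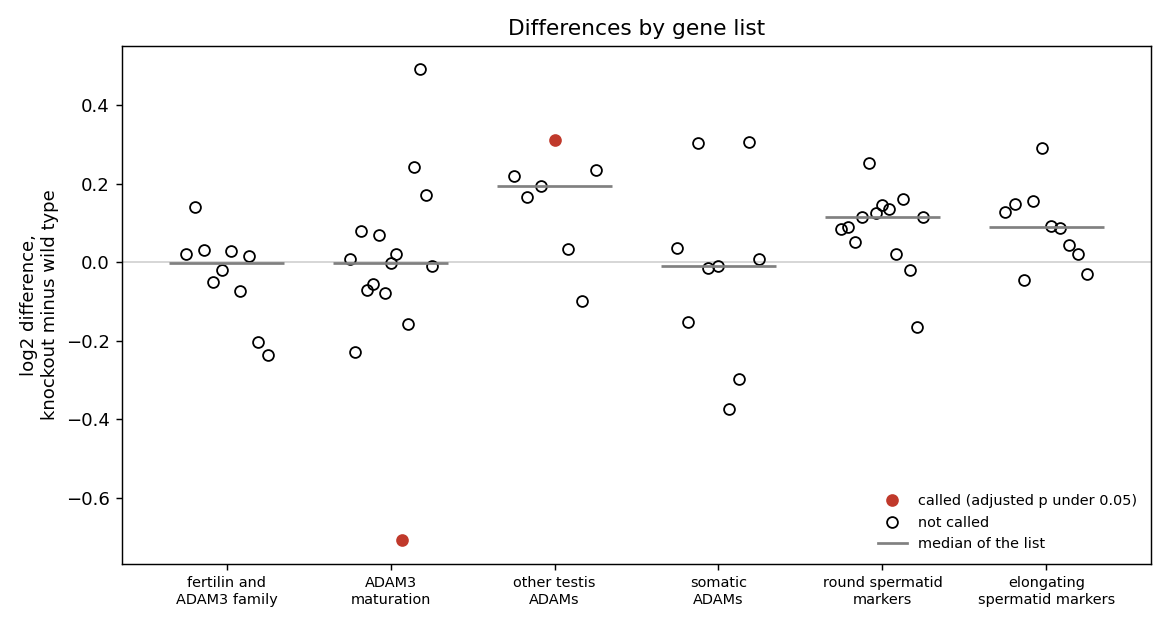
Log2 difference, knockout minus wild type, of each tested gene in 6 lists (points, filled red where the adjusted p was under 0.05) with the median of the list (grey line). The fertilin and ADAM3 family has no called gene and a median near 0, and the filled points are Prss37 and Adam26a.

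Testis markers were present, since all 12 spermatocyte, all 13 round spermatid and all 10 elongating spermatid markers on the array passed the filter, while 8 of 11 epididymis markers were not well above background on any array. Relative signals of the round spermatid markers, given beside the Adam6a and Adam6b values, summed to between 329.9 and 335.3 in knockout testes and between 305.3 and 325.2 in wild-type testes, with 11 of 13 differences above 0 and none called. The smallest p-values among them were those of Catsper3, a sperm calcium channel subunit, at 0.25 (SE 0.05, adjusted p = 0.064) and Tekt1, a flagellar tektin, at 0.16 (SE 0.05, adjusted p = 0.11). Tssk2, a testis kinase of spermatids, lay the other way at -0.16 (SE 0.06, adjusted p = 0.18). The groups did not overlap in 9 of 13 round spermatid markers, against 31.6% of all genes. Of these, Tssk2 was lower in knockout testes and all others, Catsper3 and Tekt1 among them, were higher. Elongating spermatid markers summed to between 1404 and 1565 in knockout testes and between 1402 and 1500.3 in wild-type testes. For spermatocyte markers the sums were between 392.9 and 426.1 in knockout testes and between 393.0 and 401.8 in wild-type testes. The brightest probes in these sums were those of Ldhc, Pgk2 and Ybx2, with means of 183.0, 104.1 and 87.4 in knockout testes. None of these 12 markers was called, with 6 differences above 0, 6 below 0 and no overlap in 4, against 31.6% of all genes. Of those 4, Dmc1 (-0.18, SE 0.04, adjusted p = 0.079), Mlh3 (-0.16, SE 0.04, adjusted p = 0.10) and Spo11 were lower in knockout testes and Sycp1 was higher. Of 8 tested spermatogonial markers none was called, with 4 differences above 0, 4 below 0 and no overlap of the groups in 4. The smallest p-values among these 8 were those of Stra8 at -0.42 (SE 0.08, adjusted p = 0.058) and Uchl1 at -0.19 (SE 0.05, adjusted p = 0.11). The family itself summed to between 256.4 and 266.3 in knockout testes and between 255.0 and 266.2 in wild-type testes, and these ranges overlapped. Sums of this kind follow their brightest probes, here those of Adam3 and Adam5, with means of 69.3 and 66.7 in knockout testes. Adam6a and Adam6b, with means of 2.58 and 2.29, add little, so the family sum does not show their differences. The part of germ cell composition in the Adam6a and Adam6b values was not tested.

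**Figure D5:**
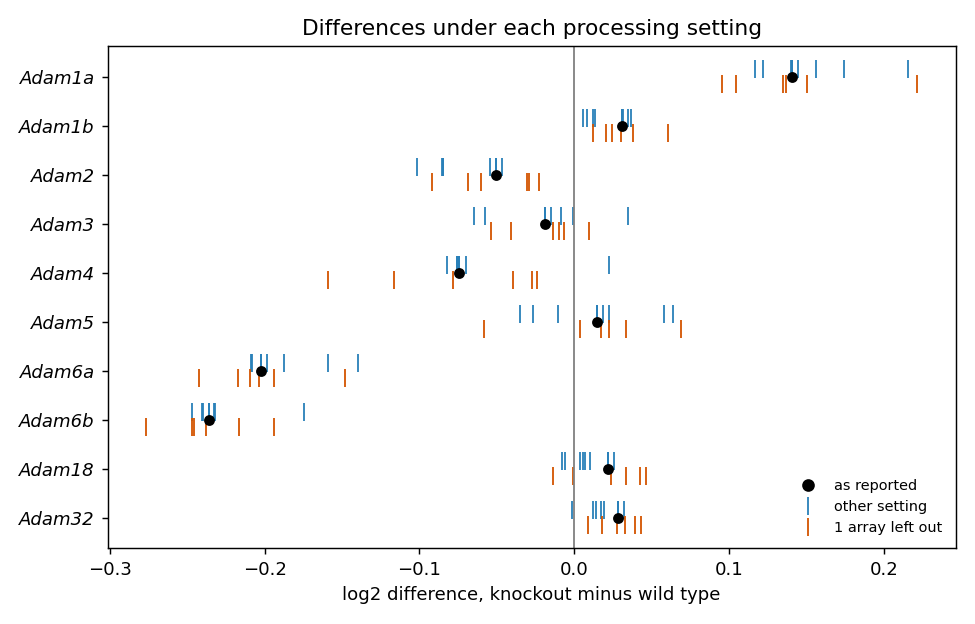
Log2 difference, knockout minus wild type, of each member as reported (black points), under each other processing setting (blue ticks) and with 1 array left out (orange ticks). Adam1a and Adam1b stay above 0 and Adam2, Adam6a and Adam6b below 0 under all 20 settings, and the other 5 members cross 0 under at least 1 of them.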

How the data were processed

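Total RNA of 6 testes had been amplified, labelled with Cy3 and hybridised to single-colour arrays of Agilent design 014868. The deposited intensity of each spot came from Agilent Feature Extraction, whose version the scanner file headers give as 10.7.3.1 and the submitters' processing notes as 10.7. The processed signal is that software's background-corrected value. Flags, spot types and probe positions on mm9 (other columns) were used as deposited. A table of log2 values deposited by the authors had columns with a median of 7.73 and sorted values alike to within 0.0013, as quantile normalization gives. No step is stated for it in the sources used here.

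Control spots and 86 to 159 flagged spots per array were left out. The log2 processed signal minus the 75th percentile of the array was averaged over spots of a probe. The 28301 probes kept had at least 2 values per genotype and, in 1 genotype or both, stood well above background wherever unflagged, and the brightest probe stood for a gene. Names came from RefSeq (GRCm38.p6), and 7446 probes without a match there kept the name in the scanner files. Genotypes were compared in limma 3.58.1 (R 4.3.3) over 18975 genes with Benjamini-Hochberg adjustment, and the fit was tested on simulated data. Alternatives were other background correction, scaling, filters, probe rules, variance models, blocks and left-out arrays. The p-values measure the spread between 3 mice per genotype. All 10 members with their probes, Prss37 and Prss55 are named, and of most other lists the called genes or those of smallest p. No gene is named of the elongating spermatid and epididymis markers as such, and of macrophage markers only Lyz2, which was not of smallest p. Sertoli, Leydig and peritubular cell markers were also tested, with none called, and are not described. Calr3, Ros1, Clgn, Tex101, Pcsk4, Tssk2, Spo11, Sycp1, Ldhc, Pgk2, Ybx2, Adam11, Lyz2, Hba-a1 and Hbb-bt were added after their values were seen. The members and lists were chosen with earlier results of these data known.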

Additional observations from a re-analysis of the deposited data

How the results depend on the processing

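The 10 members gave no call under 18 of 20 alternatives. Array weights, or a robust fit with a variance trend, gave 1 called member (Adam6b). The median difference of the members, -0.0024, became -0.050 when arrays were quantile normalized and -0.042 in the deposited table, and ran from -0.036 to 0.016 with 1 array left out. Small differences changed sign in Adam3 (0.034 with normexp, and -0.054 to 0.0094 with 1 array left out), Adam5 (-0.035 when quantile normalized, -0.027 in the deposited table, -0.011 with the mean of probes, and -0.058 to 0.068 with 1 array left out), Adam18 (-0.0081 when quantile normalized, -0.0064 in the deposited table, and -0.014 to 0.046 with 1 array left out), Adam4 (0.023 on slide 1 alone) and Adam32 (-0.0018 on slide 1 alone). Over all 20 alternatives Adam3 ran from -0.065 to 0.034, with a lowest adjusted p of 0.35. With 1 array left out, Hba-a1 ran from -0.60 to 0.11 and Hbb-bt from -0.56 to 0.29.

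Over all genes, 467 calls (230 higher, 237 lower) became 8 (2 and 6) with no filter, 275 with the mean of probes, 293 with each probe on its own, 1270 with a robust fit and variance trend, 1173 with array weights, 2 (0 and 2) with the replicate block, 79 (30 and 49) with the slide block and 27 (6 and 21) on slide 1 alone, an alternative added after seeing the data with fewer arrays. With 1 array left out there were 2 to 792 calls, the most when wild-type replicate 2 and the fewest when knockout replicate 2 was left out. What caused these changes was not tested. Same-numbered arrays did not deviate together in every pair (correlations across genes of -0.03, -0.03 and 0.16), so the numbers were not taken to pair the mice. With that block Adam6b had an adjusted p of 0.18. Having 3 arrays per genotype limits the precision of every difference.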

Other observations

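ADAMs expressed mainly outside germ cells were set beside the family, and 9 of 14 were tested. None was called, and 3 had an unadjusted p under 0.05, as had 23.9% of all tested genes, with a median difference of -0.01. Adam8, known from leukocytes, had relative signals of 1.21, 1.03 and 1.13 in knockout testes, against 0.899, 0.871 and 0.951 in wild-type testes, a log2 difference of 0.31 (SE 0.07, adjusted p = 0.078). Adam15 had 0.30 (SE 0.07, adjusted p = 0.081). Adam11 was lower on all knockout arrays, with relative signals of 0.400, 0.439 and 0.439 in knockout testes, against 0.497, 0.461 and 0.461 in wild-type testes, a difference of -0.15 (SE 0.06, adjusted p = 0.19). Macrophage markers, with 9 of 10 differences above 0 and none called, summed to a relative signal between 13.0 and 16.3 in knockout testes and between 10.3 and 13.2 in wild-type testes. Most of this sum was Lyz2, at 8.34, 9.82 and 11.1 in knockout testes, against 8.95, 6.26 and 8.54 in wild-type testes, with overlapping groups. The groups did not overlap in 5 of the 10 markers, against 31.6% of all genes. The part of macrophages in the Adam8 value was not tested.

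Proprotein convertases, the enzymes that cut ADAM precursors, gave no call among 5 tested genes. Pcsk4, the convertase of male germ cells, had 0.12 (SE 0.07, adjusted p = 0.36), Pcsk6 had 0.18 (SE 0.09, adjusted p = 0.27) and Pcsk7 had -0.22 (SE 0.05, adjusted p = 0.078). Pcsk7 was lower on all knockout arrays, with relative signals of 1.36, 1.28 and 1.30 against 1.58, 1.45 and 1.55 in wild-type testes. With a robust fit and variance trend Adam8, Adam15 and Pcsk7 passed, with adjusted p of 0.039, 0.038 and 0.042. Pcsk7 also passed with array weights (0.049) and Adam15 without wild-type replicate 2 (0.037), and none of the 3 passed under the other alternatives.

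Among erythroid markers 1 of 3 tested genes was called, Alas2, an enzyme of haem synthesis in red cell precursors. It had relative signals of 2.88, 2.85 and 2.96 in knockout testes, against 1.83, 2.17 and 2.05 in wild-type testes, a log2 difference of 0.53 (SE 0.07, limma adjusted p = 0.039). The call was lost under 9 of 20 alternatives, among them leaving out any 1 array other than wild-type replicate 2. The haemoglobin genes Hba-a1 and Hbb-bt had differences of -0.25 (SE 0.35, adjusted p = 0.71) and -0.11 (SE 0.42, adjusted p = 0.90), below 0, and the median of the list was -0.11. Without wild-type replicate 1 these haemoglobin differences were 0.11 and 0.29.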
